A study of Drosophila melanogaster with 3 samples.

Results

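The peaks described here are sites of Lola-RI-GFP binding that lie in introns of protein-coding genes shorter than 50 kb, away from any annotated transcription start site (TSS). A peak was counted when its summit lay more than 500 bp from every TSS, in no exon, and inside protein-coding genes that were all under 50 kb. Of the 9202 peaks in the reproducible list, 1774 met the rule, which is 19.3% (95% Wilson interval 18.5% to 20.1%). Within that list the rule used position only, and neither peak height nor sequence. The study mapped binding by chromatin immunoprecipitation with sequencing (ChIP-seq) in Drosophila melanogaster larvae of a stable transgenic line. The line carried the Lola-RI protein fused at its C terminus to enhanced green fluorescent protein, and the chromatin was precipitated through that tag with an antibody against GFP. Mixed-sex wandering larvae of the third instar, taken whole, gave 3 biological replicates in 1 group, and no other genotype, stage or treatment was compared. Each signal is therefore an average over all larval tissues, and a site bound in a few cells cannot be told apart from one bound weakly in many.

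Lola is a family of nuclear proteins made from 1 gene by alternative splicing. Its isoforms share a BTB domain, which pairs BTB proteins with each other, and most end in their own zinc fingers. Lola proteins are known in flies for roles in axon guidance, in keeping neurons differentiated and in the development of germ cells and the eye. Introns of fly genes often hold enhancers, and a large share of these lie in the first intron, near the promoter of the host gene.

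The reproducible list came from the authors' filter on the irreproducible discovery rate (IDR). It was made from the same 3 replicates as the replicate lists and is not independent of them. Its peaks were the 9202 highest-scoring of the authors' list for the pooled replicates, so being in it is also a cut on score. The authors' lists per replicate and for the pool had 30000 peaks apiece, and those of the replicates were shortened to their 9202 highest-scoring peaks to match the IDR list. In these lists the intronic peaks made up 20.6%, 18.6% and 18.1% of all peaks for replicates 1, 2 and 3, a mean of 19.1% ± 1.29 (SD, n = 3). The sequencing depth is unknown, since the peak lists hold no read counts. All tests over replicates below are exact sign-flip permutation tests, two-sided, and with 3 replicates the smallest p they can give is 0.25. No comparison here can therefore reach a threshold of 0.05, and the replicate values themselves carry the description.

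The strongest intronic peaks included sites in genes of lysosomal transport, ion conduction, transcription and metabolism. The highest was in spin, which encodes a transporter of the lysosomal membrane, at rank 9 of the IDR list and at ranks 6, 10 and 9 in replicates 1, 2 and 3. The next lay in KCNQ, a voltage-gated potassium channel gene, at rank 11 and at ranks 15, 12 and 11 in the replicates. Both were among the 15 highest-scoring peaks of every replicate. For both, the nearest TSS belonged to another gene. The spin peak lay 2674 bp from a TSS of Got1 and 10697 bp from the nearest TSS of spin. The KCNQ peak lay 1173 bp from a TSS of mlt and 5227 bp from the nearest TSS of KCNQ. A peak shared by Trl and CG42507 ranked 28, and ranked 25, 38 and 22 in the replicates. Trl encodes GAGA factor, itself a BTB zinc finger protein. REPTOR, which encodes a transcription factor held back by the growth kinase complex TORC1, held a peak at rank 33, with replicate ranks 31, 32 and 41.

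The sequences around 8 of the highest-scoring summits are shown because most hold the short word that was most concentrated at intronic summits. They belong to the 11 highest-scoring intronic peaks, of which spin, KCNQ and Pepck2 lie on an arm whose sequence is not printed here. Each is the IDR summit with 50 bp to either side on the plus strand of dm6, read from the NCBI RefSeq release 6 assembly, and capitals mark AAAGCT or its reverse complement AGCTTT. The Trl window is chr3L:14756376-14756476, REPTOR is chr3R:24565993-24566093 and Xrp1 is chr3R:18916971-18917071. The for window is chr2L:3648272-3648372, snu is chr3R:28677841-28677941 and FASN1 is chr2L:3059374-3059474. The crp window is chr2L:16269554-16269654 and IP3K2 is chrX:13319428-13319528. All are intronic, in the first intron for Xrp1, snu and FASN1 and in a later intron for the others.
Trl: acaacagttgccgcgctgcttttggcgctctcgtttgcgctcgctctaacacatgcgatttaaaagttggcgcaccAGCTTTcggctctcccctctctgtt
REPTOR: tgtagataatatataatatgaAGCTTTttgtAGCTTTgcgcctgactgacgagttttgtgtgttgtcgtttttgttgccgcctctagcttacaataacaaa
Xrp1: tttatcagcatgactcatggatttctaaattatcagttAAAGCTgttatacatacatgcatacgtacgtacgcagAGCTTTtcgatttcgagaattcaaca
for: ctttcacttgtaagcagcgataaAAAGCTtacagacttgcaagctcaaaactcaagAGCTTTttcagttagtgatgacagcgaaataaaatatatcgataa
snu: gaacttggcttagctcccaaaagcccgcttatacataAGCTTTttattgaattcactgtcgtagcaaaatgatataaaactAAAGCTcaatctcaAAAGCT
FASN1: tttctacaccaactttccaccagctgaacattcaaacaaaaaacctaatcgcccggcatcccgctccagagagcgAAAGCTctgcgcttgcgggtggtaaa
crp: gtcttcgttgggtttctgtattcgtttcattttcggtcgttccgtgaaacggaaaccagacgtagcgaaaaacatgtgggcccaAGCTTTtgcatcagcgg
IP3K2: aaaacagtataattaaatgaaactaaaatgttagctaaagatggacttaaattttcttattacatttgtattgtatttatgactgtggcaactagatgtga
Of these 8 windows, 7 held the word, and the IP3K2 window did not. The windows of spin, KCNQ and Pepck2 held it too, with 1, 2 and 1 copies. Of the 25 highest-scoring windows 21 held it. The word was chosen at these same IDR summits, so the counts are descriptions and no test of it. High-ranking peaks of other classes held it too. In the top rank bin of the whole IDR list, it was in 45.5% of intronic and 49.8% of promoter summit windows. The shares there were 49.6% for introns of genes of 50 kb or more and 50% for intergenic peaks. Among the windows printed above, REPTOR, Xrp1 and for held 2 copies of the word each and snu held 3. The copies lay on both strands, and the base composition of the windows ran from 24.8% G+C at IP3K2 to 54.5% at Trl.

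Below these, the strongest intronic peaks fell in genes with many different roles. Pepck2, a phosphoenolpyruvate carboxykinase gene of glucose synthesis, held the peak at rank 41, with replicate ranks 41, 43 and 34. Xrp1, a bZIP transcription factor gene of cell competition, held the peak at rank 51, with replicate ranks 61, 49 and 49. The gene for, which encodes a cGMP-dependent protein kinase, held the peak at rank 52, with replicate ranks 60, 55 and 51. FASN1, a fatty acid synthase gene, held the peak at rank 65, with replicate ranks 51, 77 and 71. The summits of the 25 highest-scoring intronic peaks were 40 bp or less from the nearest replicate summit in every list. Their replicate ranks ran from 6 to 383, and the last of them stood at rank 262 of the IDR list.

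**Figure D1:**
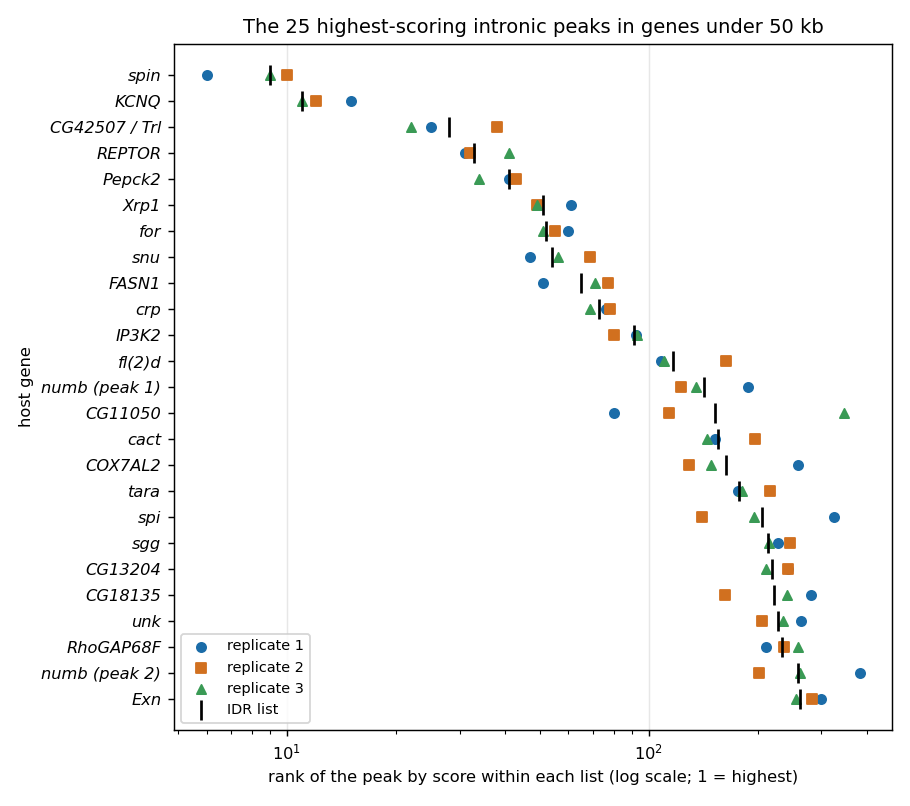
Rank of each of the 25 highest-scoring intronic peaks (rows, by host gene) in the 3 replicate lists (coloured symbols) and in the IDR list (black bars), on a log axis where 1 is the highest score. The replicate ranks run from 6 to 383, and the CG11050 peak shows the widest spread, from 80 in replicate 1 to 346 in replicate 3.

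Signalling genes were also among these 25. The cell fate gene numb held a pair of them, at ranks 142 and 259. Others were spi, a ligand of the epidermal growth factor receptor, at rank 206, and cact, the inhibitor of Dorsal, at rank 155. The kinase gene sgg, a negative regulator of Wnt signalling, stood at rank 213. CG11050 varied most, with ranks 80, 114 and 346 in replicates 1, 2 and 3. Of the 25 peaks, 13 lay in a first intron, and in 20 the nearest TSS belonged to the host gene. The exceptions were the peaks in spin, KCNQ, crp, cact and tara.

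As a class the intronic peaks scored below promoter peaks. Their median rank percentile, where 0 is the highest score, was 55.1 in the IDR list against 47.1 for the 5109 promoter peaks. The difference over the replicates was 7.41 ± 1.41 percentile points (SD, n = 3), and it had this sign in 3 of 3 replicates (exact p = 0.25). In the full lists of 30000 peaks the difference was 24.9 points. Against introns of genes of 50 kb or more the differences were -1.51, 1.26 and 2.66 points, and against intergenic peaks they were -0.11, 3.11 and 8.92 points, so neither kept its sign over the replicates. The mean difference from intergenic peaks was 3.97 points, and it was 1.5 without replicate 3 and 6.02 without replicate 1. The score is the authors' own value and is used here only to rank peaks within a list. Intronic peaks made up 16.3% of ranks 1 to 3000 of the pooled list and 32.0% of ranks 12001 to 15000. The median width of the intronic peaks was 420 bp, and that of promoter peaks was 464 bp.

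Recovery in the replicates fell from the highest to the lowest ranks. At similar low rank its difference from promoter peaks changed sign between replicates. Intronic IDR peaks were overlapped by at least 1 bp in 90.9%, 85.1% and 82.0% of cases in the shortened lists of replicates 1, 2 and 3, and promoter peaks in 91.4%, 89.5% and 93.7%. The mean difference from promoter peaks was -5.54 points, and it was -2.45 without replicate 3. All 3 shortened lists held 1192 of the intronic peaks, or 67.2% (Wilson interval 65.0% to 69.3%), beside a background of 74.7% over all 9202 IDR peaks. When the IDR list was cut into 5 equal bins of rank, every one of the 268 intronic peaks in the top bin recurred in all 3 replicates. Of the 415 in the lowest bin, 17.1% did. For promoter peaks the share was 99.8% in the top bin and 31.3% in the lowest. In bins 2, 3 and 4 it was 98.6%, 87.7% and 50.6% for intronic peaks. For promoter peaks it was 97.2%, 92.7% and 68.0% in those bins. In the lowest bin it was 21.4% for peaks in long-gene introns and 16.8% for intergenic peaks. These shares ask for all 3 replicates at once. Taken singly in the lowest bin, replicates 1, 2 and 3 overlapped 70.6%, 57.8% and 54.5% of intronic peaks. They overlapped 65.0%, 62.9% and 77.4% of promoter peaks there. In bin 4 the values were 90.6%, 82.3% and 72.5% for intronic peaks and 89.2%, 85.4% and 91.4% for promoter peaks. The widest gap in both bins was in replicate 3. The full lists of 30000 peaks overlapped 1718 of the 1774 in every replicate, which is 96.8%. The median distance between an intronic IDR summit and the nearest replicate summit was 14, 14 and 10 bp. Over those 1718 peaks the ranks had a Spearman coefficient of 0.758 for replicates 1 and 2. It was 0.665 for replicates 1 and 3 and 0.681 for 2 and 3. These coefficients are descriptions over peaks that share libraries, not over independent samples.

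Per length of eligible sequence, summits were denser in these introns than in introns of longer genes or between genes. The IDR list had 66.1 summits per Mb in the 26.8 Mb of eligible intron, 32.0 per Mb in introns of genes of 50 kb or more and 32.1 per Mb in intergenic sequence. Over the replicates the log2 ratio of densities was 1.08 ± 0.05 over long-gene introns and 1.07 ± 0.07 over intergenic sequence (SD, n = 3, exact p = 0.25 for both), with the same sign in 3 of 3 replicates. Much of this contrast went with distance from a TSS. At 500 to 1000 bp from a TSS the density was 129 ± 9.65 summits per Mb in introns of shorter genes and 99.6 ± 6.06 in long-gene introns, a fold of 1.29. Beyond 10000 bp the values were 24.9 ± 3.08 and 14.5 ± 1.26 per Mb, a fold of 1.70. The fold over long-gene introns in the other distance ranges was 1.20, 1.17 and 1.44. At matched distance the contrast with long-gene introns was therefore smaller than the pooled one, and it had the same sign in every distance range and replicate.

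**Figure D2:**
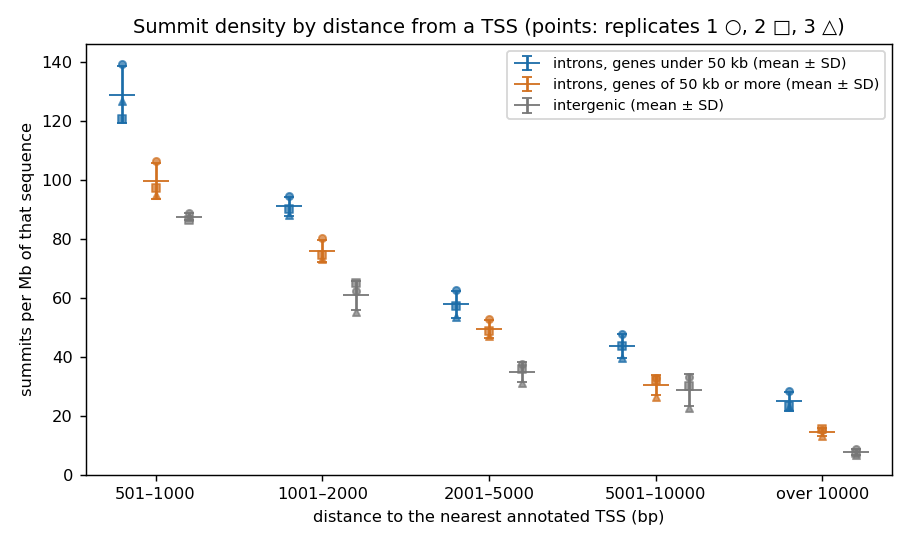
Summits per Mb of sequence (vertical axis) by distance from the nearest TSS in bp (horizontal axis) for introns of genes under 50 kb, introns of genes of 50 kb or more and intergenic sequence. Small symbols are the 3 replicates, and bars give mean ± SD; density falls with distance in all 3 classes, from 129 to 24.9 per Mb in introns of genes under 50 kb.

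Against intergenic sequence the fold was 1.47 at 500 to 1000 bp and 3.25 beyond 10000 bp. The chromosomes differed too. Mean density over the replicates was highest on X, at 77.9 ± 4.38 summits per Mb, and on 3L, at 74.7 ± 4.34. It was 63.9 ± 5.14 on 2L, 63.8 ± 4.2 on 2R and 57.2 ± 5.52 on 3R, and these 3 arms overlapped in their spread. Chromosome 4 held 7 of the peaks, a mean density of 13.1 ± 3.25 per Mb. Its eligible sequence was 0.533 Mb, the smallest of the 6.

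Most of the intronic summits lay nearest to a TSS of their own host. This was so for 1405 of 1774, or 79.2%, and the host TSS lay upstream of the summit in 60.4% and downstream in 18.8%. For 12.7% the nearest TSS belonged to another protein-coding gene and for 8.06% to a noncoding gene. The median distance to the nearest TSS was 1933 bp, with the middle 50% between 1013 and 4280 bp. Just inside the rule, a MESR3 summit lay 503 bp from a TSS, and just outside it a summit in CG32512 and bves lay at 500 bp. In gene length, the rule kept Dyrk2 at 49649 bp and left out Sytbeta at 50283 bp.

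First introns held more of these summits than their share of sequence. In the IDR list 1010 of 1774 summits, or 56.9%, lay in a first intron (Wilson interval 54.6% to 59.2%), which makes up 40.1% of the eligible sequence. The difference over the replicates was 17.2 ± 0.84 percentage points (SD, n = 3, exact p = 0.25), with the same sign in 3 of 3. First introns also lie closer to a TSS. At 500 to 1000 bp from a TSS the first-intron share was 68.1% of summits and 56.2% of sequence in the IDR list, and at 5000 to 10000 bp it was 43.1% and 32.8%. In each of the 5 distance ranges the share among summits exceeded that of sequence, both for the IDR peaks and for each replicate.

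The 1774 peaks fell in 960 host genes, which is 11.2% of the 8609 protein-coding genes under 50 kb with any eligible intron. A single peak was held by 550 hosts, 2 peaks by 199, and 3 or more by 211, which together held 886. These are counts of summits, and some summits share a region. Once overlapping peaks were merged, the 1774 peaks lay in 1591 distinct regions. In COX7AL2, for example, the summits at ranks 163 and 391 had the same peak start and end. In 736 hosts an intronic summit was present in the IDR list and in all 3 shortened replicate lists. Hosts were long genes: their median length was 14087 bp, against 3428 bp over all eligible genes. They also had more eligible intron in which a summit could fall, a median of 7.48 kb against 0.424 kb. The share of genes that held a peak was 1.92% under 5 kb, 15.5% at 5 to 10 kb, 32.5% at 10 to 20 kb, 44.4% at 20 to 30 kb and 47.6% at 30 to 50 kb. These shares do not take out the amount of sequence. Genes under 5 kb had 106 hosts in 1.97 Mb of eligible intron, and genes of 30 to 50 kb had 166 hosts in 9.99 Mb.

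The genes with the most intronic peaks included several regulators of growth and transcription. The trithorax group and cell cycle gene tara (chr3R:16225651-16260329) held 18, with 16, 20 and 17 in replicates 1, 2 and 3. The gene crp (chr2L:16263556-16287730), which encodes a bHLH transcription factor, held 15, with 12, 12 and 15 in the replicates. Mnt, the antagonist of Myc, held 12, with 15, 14 and 11. REPTOR held 11, with 10, 8 and 10. E2f1, a transcription factor gene of entry into S phase, also held 11, with 12, 14 and 9. The kinase gene Raf held 10, but its replicates varied more, with 9, 12 and 6. The forkhead factor gene CHES-1-like, simj, a gene of a chromatin remodelling complex, and CG46385 held 10 each, and atos held 9. These 10 genes were 21463 to 48405 bp long, and all 10 also had a promoter summit in the IDR list and in every replicate.

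Genes with an intronic peak more often had a peak at their promoter. Among the 960 hosts, 735 had a promoter summit, or 76.6% (Wilson interval 73.8% to 79.1%), beside a background of 40.6% over all eligible genes and 36.0% among the genes with no intronic peak. The difference between hosts and other genes was 36.9, 39.1 and 39.6 percentage points in replicates 1, 2 and 3, a mean of 38.6 ± 1.42 (SD, n = 3, exact p = 0.25). Within classes of gene length the mean difference was 39.8 points under 5 kb, 30.02 at 5 to 10 kb, 39.8 at 10 to 20 kb, 29.5 at 20 to 30 kb and 37.8 at 30 to 50 kb. The number of annotated TSSs moved with the difference, a split made after the main values were seen. It was 34.6 ± 2.02 points for genes with 1 TSS, 30.8 ± 2.33 for genes with 2 or 3, and 18.6 ± 1.82 for genes with 4 or more. Hosts stood above the other genes in 3 of 3 replicates in every one of these classes. Whether a gene was active in the larvae was not measured here, and its part in the difference was not tested.

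**Figure D3:**
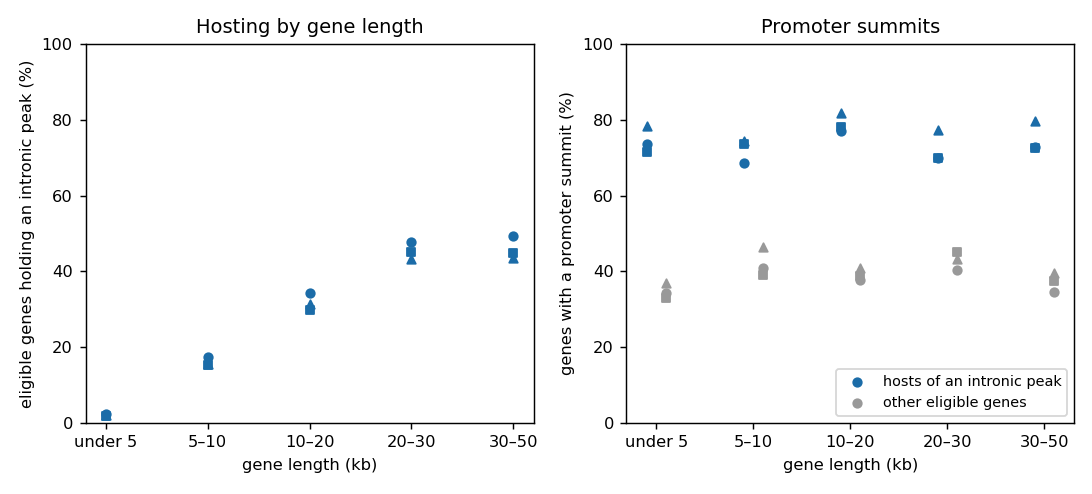
Left, percent of eligible genes that held an intronic peak, by gene length in kb; right, percent of genes with a promoter summit among hosts (blue) and other eligible genes (grey). Circles, squares and triangles are replicates 1, 2 and 3; hosting rises with length up to genes of 20 to 30 kb and is 43.6% to 49.3% at 30 to 50 kb, where replicate 2 is slightly below its value at 20 to 30 kb, and hosts lie above other genes in every length class.

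The hosts were also counted in 24 lists of genes by function, beside the 11.2% of all eligible genes. Of the 24 lists, 22 had a higher share of hosts than all eligible genes for the IDR peaks and for every replicate. All 24 lists had a median gene length above the 3428 bp of all eligible genes, and longer genes held peaks more often, so these shares are descriptions of the lists. By peaks per Mb of eligible intron, 21 lists stood above the 66.1 per Mb of all eligible sequence. Density also falls with distance from a TSS, and the values per Mb do not take that out.

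The 2 largest shares of hosts were in lists of growth factor and hormone signalling. In the epidermal growth factor receptor and Ras pathway 11 of 16 eligible genes were hosts, or 68.8%, with replicate shares of 68.8%, 62.5% and 56.3% and with 200.4 peaks per Mb. They included the ligand gene spi, the receptor gene Egfr with 6 peaks and Raf with 10. In the list named for the response to the moulting hormone ecdysone 9 of 13 were hosts, which was 69.2% in all peak lists. Among them were Eip78C and crol, with 3 and 2 peaks. The list was not limited to ecdysone, since it counted gce, a receptor gene for juvenile hormone, with 5 of its 23 peaks.

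In the JAK-STAT pathway 3 of 10 genes were hosts, at 248 peaks per Mb. They were ken, the transcription factor gene Stat92E and the inhibitor gene Socs36E. In the Notch list 5 of 16 genes were hosts, with numb at 7 peaks and the receptor gene N and the ubiquitin ligase gene neur at 2 each. In the Hippo list 5 of 16 were hosts, led by Tgi, a repressor of Yorkie targets, at rank 339. In the insulin and TOR list 7 of 22 were hosts, with InR at 6 peaks, Myc at 5 and Akt at 1. In the Wnt list 6 of 18 were hosts, and nkd, a feedback inhibitor, held 7. The shares for Notch, Hippo, insulin and TOR, and Wnt were 31.3%, 31.3%, 31.8% and 33.3%, at 117, 91.5, 181 and 98.8 peaks per Mb. Median gene length was 15440.5 bp for Hippo and 12459 bp for Wnt. Of all eligible genes of 10 to 20 kb, 32.5% were hosts. The medians were 5960 bp for Notch and 6961 bp for insulin and TOR, and 15.5% of genes of 5 to 10 kb were hosts.

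The metabolic lists were among the 21 lists with more peaks per Mb of intron than all eligible sequence. This was not particular to metabolism, since the cell cycle and cell death list held 188 per Mb and the chromatin list 173. In lipid metabolism 10 of 24 genes were hosts, at 164 peaks per Mb, and they included FASN1, Lpin and Acsl. In glycolysis and carbohydrate metabolism 8 of 26 were hosts, at 186 peaks per Mb, with the pyruvate kinase gene PyK at rank 431 and Pdk at rank 442. In autophagy and lysosome genes 7 of 22 were hosts, among them spin and the kinase gene Atg1. Of the cytoskeleton and cell adhesion list 19 of 36 were hosts, or 52.8%.

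The neuronal and matrix lists held fewer peaks per Mb of eligible intron than all eligible sequence. Axon guidance and neuronal adhesion genes held 29.7 peaks per Mb, and ion channel and synapse genes held 27.3, although KCNQ in that list carried the second highest peak. Their hosts were 6 of 23 and 5 of 25 genes, and their median lengths were 27829 and 17718 bp. In basement membrane and matrix genes 1 of 13 was a host, Mmp1, at 14.7 peaks per Mb, a value that rests on 1 peak in 0.068 Mb. Vesicle traffic genes differed from these, with 3 hosts of 27, or 11.1%, but 141 peaks per Mb. The tissue of origin of each peak was not measured. Its part in the low values of the neuronal and matrix lists, and that of distance from a TSS, was not tested.

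The words and motifs at the summits were compared with flanks in the same genes. For each peak, the summit with 50 bp to either side was set against windows of the same length centred 500 bp to either side, and both strands were searched. AAAGCT was the word of 6 bases with the largest difference at the IDR summits, out of 2080 words counted, and it was chosen for that, so its IDR values are given with no test. It was present in 406 of 1774 summit windows, or 22.9%, in 5.72% of flanks and in 6.73% of the 238295 windows that tile the eligible introns. The difference between summits and flanks was 15.2, 11.8 and 21.5 percentage points in replicates 1, 2 and 3. Those replicates went into the IDR list from which the word was chosen. With the intronic peaks cut into 5 equal bins of rank, the share was 41.4% in the top bin and 15.0% in the lowest. More than 1 copy was held by 119 windows. The palindrome AAGCTT, which overlaps it, was in 11.9% of summits and 2.45% of flanks.

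The word was not particular to these introns. It was in 23.2% of promoter summits, 22.1% of summits in long-gene introns and 24.5% of intergenic summits of the IDR list. Over the replicates the mean share was 21.9% ± 4.62 for the intronic peaks and 22.7% ± 2.03 for promoter peaks (SD, n = 3), values that overlap.

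About 1 flank window in 5 left the eligible intron. Its centre was eligible in 78.6% of the IDR flanks, and the rest were centred in exons, near promoters or in other sequence. An alternative, chosen after the data were seen, kept only flanks centred in eligible intron and set each against its own summit. On it the AAAGCT difference was 13.6, 10.6 and 20.2 points in the replicates.

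Of 23 consensus motifs searched, 8 were more frequent at summits than in flanks in every replicate and 6 were less frequent. Beside them, of all 2080 words of 6 bases, 431 were more frequent at summits in every replicate and 835 were less frequent. A sign shared by the replicates was therefore common among words of any kind, and the motif counts are descriptions. None can pass a threshold in this design, and all 14 had an exact p of 0.25 and an adjusted p of 0.411 (Benjamini-Hochberg over the 23 motifs). TATAAA, the TATA box, was in 18.5% of summits and 12.4% of flanks on average, a difference of 6.04 ± 2.31 points (SD, n = 3). With flanks in eligible intron this fell to 4.91 ± 2.70, and the replicates were 7.02, 5.83 and 1.87. In the full replicate lists, with all flanks, it was 2.00 points. AGATAA, the GATA factor motif, differed by 1.94 ± 0.93 points, and by 0.78 in the full lists. GAGAG, the motif of GAGA factor, differed by 0.34, 2.74 and 6.62 points in replicates 1, 2 and 3, and without replicate 3 the mean difference was 1.54 points. GGAATG, the Scalloped motif, was less frequent at summits, by 2.46, 1.11 and 0.90 points.

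**Figure D4:**
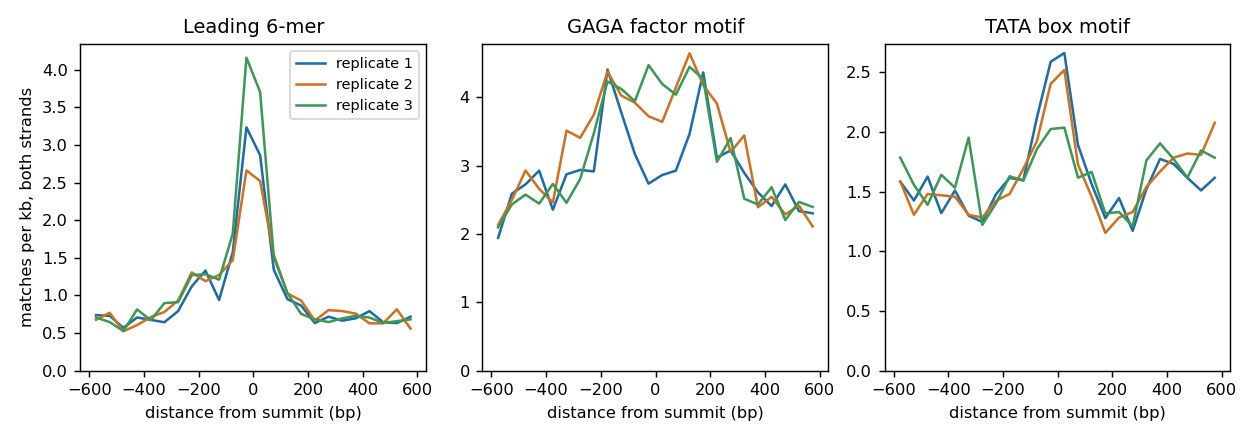
Matches per kb on both strands (vertical axis) in 50 bp steps from the summit (horizontal axis, bp) for the leading 6-mer, the GAGA factor motif and the TATA box motif, 1 line per replicate. The leading word peaks at the summit, at 3.23, 2.66 and 4.16 matches per kb just before it in replicates 1, 2 and 3, against 0.74, 0.68 and 0.71 at the far left; the GAGA factor motif is broad, and in replicate 1 it dips at the summit.

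Base composition moved with these values. Summit windows held 36.1%, 37.4% and 39.7% G+C in replicates 1, 2 and 3, and their flanks held 41.4%, 41.2% and 40.9%. With flanks in eligible intron the differences were -4.44, -2.85 and 0.41 points, so replicate 3 had no lower G+C at its summits on that comparison. Eligible introns as a whole held 39.8%. TATAAA and AGATAA are rich in A and T, and the part of base composition in their differences was not tested.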

How the data were processed

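The authors deposited peak lists for each of the 3 replicates, for the replicates pooled, and for the pooled peaks that passed an IDR threshold, with dm6 coordinates, per the labels. The aligner, the peak caller and the IDR threshold are not stated in the labels or headers. The control library was not analysed here. The score in the deposited lists is the authors' own, on a scale that no header states. The −log10 q value deposited by the authors was at the same ceiling for all IDR peaks and was not used to rank. Positions were given as deposited and are printed 1-based.

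Summits were classed with Ensembl release 115 gene models, without transposable elements, in Python 3.11.15 (numpy 2.4.6, pandas 2.3.3, scipy 1.17.1), first as promoter, then exon, then intron or intergenic. The test design, the rule for named genes (the 25 highest-scoring peaks, the 10 hosts with the most peaks and up to 3 hosts per list) and the alternatives were set with earlier results of these data known, as were the members and the gene lists. The gene list symbols were corrected after the data were seen. The scripts were tested on simulated data. With simulated summits placed at random in introns, the motif comparison with all flanks did not return 0, because flanks can leave the intron, and the comparison with flanks kept in eligible intron was added for that reason. Intervals are 95% Wilson intervals over peaks or genes and cover counting error only. They treat summits of the same region as separate peaks. The labels name lola under antibody, but GFP in their description. Replicates come from separate biological samples, per the labels.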

Additional observations from a re-analysis of the deposited data

How the results depend on the processing

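Of 171 values under alternatives, 154 kept the direction of the main value or stayed within its spread. The share of peaks that met the rule follows its limits by construction: it was 22.5% with a TSS distance of 250 bp, 14.3% with 1000 bp, 14.3% with a gene limit of 30 kb, 24.7% with 100 kb, 17.4% in the 5000 highest-scoring peaks and 26.7% in the full replicate lists, against 19.1%. The share of genes that held a peak was 9.77% with 30 kb, 12.3% with 100 kb and 7.02% in the 5000 highest-scoring peaks, against 11.2%. The difference in median rank from long-gene introns, 0.80 points, became -2.69 with 30 kb and -5.58 in the full lists, and leaving out 1 replicate gave -0.12 to 1.96. That from intergenic peaks, 3.97 points, became -2.42 in the full lists, and 1.5 to 6.02 on leaving out 1 replicate. That from promoter peaks, 7.41 points, became 24.9 in the full lists. The difference in recovery from long-gene introns, -0.53 points, became 1.54 with 30 kb and 0.0931 in the full lists. In the full lists recovery differed by 0.28 points from promoter peaks and by 0.78 from intergenic peaks (the main value from promoter peaks was -5.54, and -8.05 to -2.45 on leaving out 1 replicate). The cause was not tested. The density ratios, the first-intron difference and the promoter difference kept their sign under every alternative run for them, at log2 ratios of 0.85 to 1.58 over long-gene introns and 31.2 to 42.6 points for promoters. In the full lists the AAAGCT difference was 5.53 points, that of TATAAA 2.00 and that of AGATAA 0.78. No pairing between groups was possible because there is 1 group. The differences between classes of peaks or genes were taken within each replicate, so the sign-flip tests were paired in that sense. Unknown depth, 3 replicates and whole larvae limit all values.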
